A study of Parascaris univalens with 7 samples.

Results

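The proteasome genes of the horse roundworm Parascaris univalens were followed across 5 tissues of a nematode that discards part of its genome from its body cells. A gene was taken as a member when its annotation named a proteasome or a 26S protease, which found 60 of 15027 genes on 49 scaffolds. The authors' table marks 15 of these 60 genes, on 11 scaffolds, as lying in eliminated DNA, and 985 of all genes carry that mark. Retained members number 45. The members cover 34 kinds of subunit, and 12 kinds have more than 1 annotated gene.

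The proteasome is the barrel-shaped protease that degrades proteins tagged with ubiquitin. Its 20S core has outer rings of alpha subunits, which form the gate, and inner rings of beta subunits, some of which cut peptide bonds. The 19S regulatory particle caps the core: its ATPase subunits unfold the substrate and drive it inwards, while its non-ATPase subunits bind ubiquitin chains, remove them and hold the particle together. Activators such as subunit 4 of the activator complex (PSME4) can cap the core in place of the 19S particle. PSME4 is abundant in mammalian testis, where it takes part in the removal of histones during sperm formation. Mammals also have a testis copy of alpha type-7, and Drosophila has testis copies of several core and regulatory subunits.

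The study sequenced rRNA-depleted total RNA from testis, ovary, embryo, intestine and carcass of a North American wildtype strain, with 1 library per tissue. Adult worms came from horse intestine, the early embryos were stored cold, and no worm received a treatment. The labels call testis the male germline and ovary the female germline, and they describe embryo, intestine and carcass alike as male somatic. A further 2 libraries, made from a mixed sample to capture 5′ ends with a spliced leader or a cap-dependent primer kit (TeloPrime), entered the deposited table only as a mark on each transcript.

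Values are the authors' RPKM, read counts scaled to transcript length and to library depth, so levels of different genes are comparable per length. The steps between low values correspond to between 11920000 reads in embryo and 31740000 in ovary. At the median transcript length of 1325 nt, 3 reads equal between 0.0713 RPKM in ovary and 0.190 in embryo. Tissues were compared on log2(RPKM + 1). A call required a difference of 2 or more, which is 4-fold, and a level of 5 RPKM or more where the gene was higher. With 1 library per tissue no difference has a replicate check, and no p-value is given. The labelled tissues were set against marker genes. Of 35 genes annotated as major sperm protein or MSP-domain, 34 were highest in testis, and of 23 ovary markers 21 were highest in ovary. The summed carcass markers, troponins and cuticle collagens, stood at 41234 RPKM in carcass and at no more than 1938.8 elsewhere, although only 49 of the 152 were highest in carcass and 57 were listed at 0 there. The intestine markers, vitellogenin and trehalase, summed to 2272.3 RPKM in intestine and to at most 668.4 elsewhere, although only 4 of the 12 were highest there. Homeobox genes separated embryo from the rest weakly, with 683.8 RPKM in embryo and between 188.6 and 507.6 in the other tissues, and with 29 of 69 genes highest in embryo.

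All 15 eliminated proteasome genes were highest in testis. By annotation they comprise 6 genes for PSME4, 4 for non-ATPase subunit 2, 3 for non-ATPase subunit 12, 1 for non-ATPase subunit 4 and 1 for alpha type-7. No beta subunit and no ATPase was marked as eliminated. Retained genes included 4 more with the same testis pattern, and most of the other 41 were present in every tissue with smaller differences. In testis against ovary, 19 of 60 members were called higher in testis, beside 11.6% of all genes. They were 15 of 15 eliminated members and 4 of 45 retained members. The same call held for 44.8% of the 985 eliminated genes and for 9.25% of retained genes over the whole table. In bulk tissue, a change in the number of cells of a type and a change in RNA per cell cannot be told apart.

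**Figure D1:**
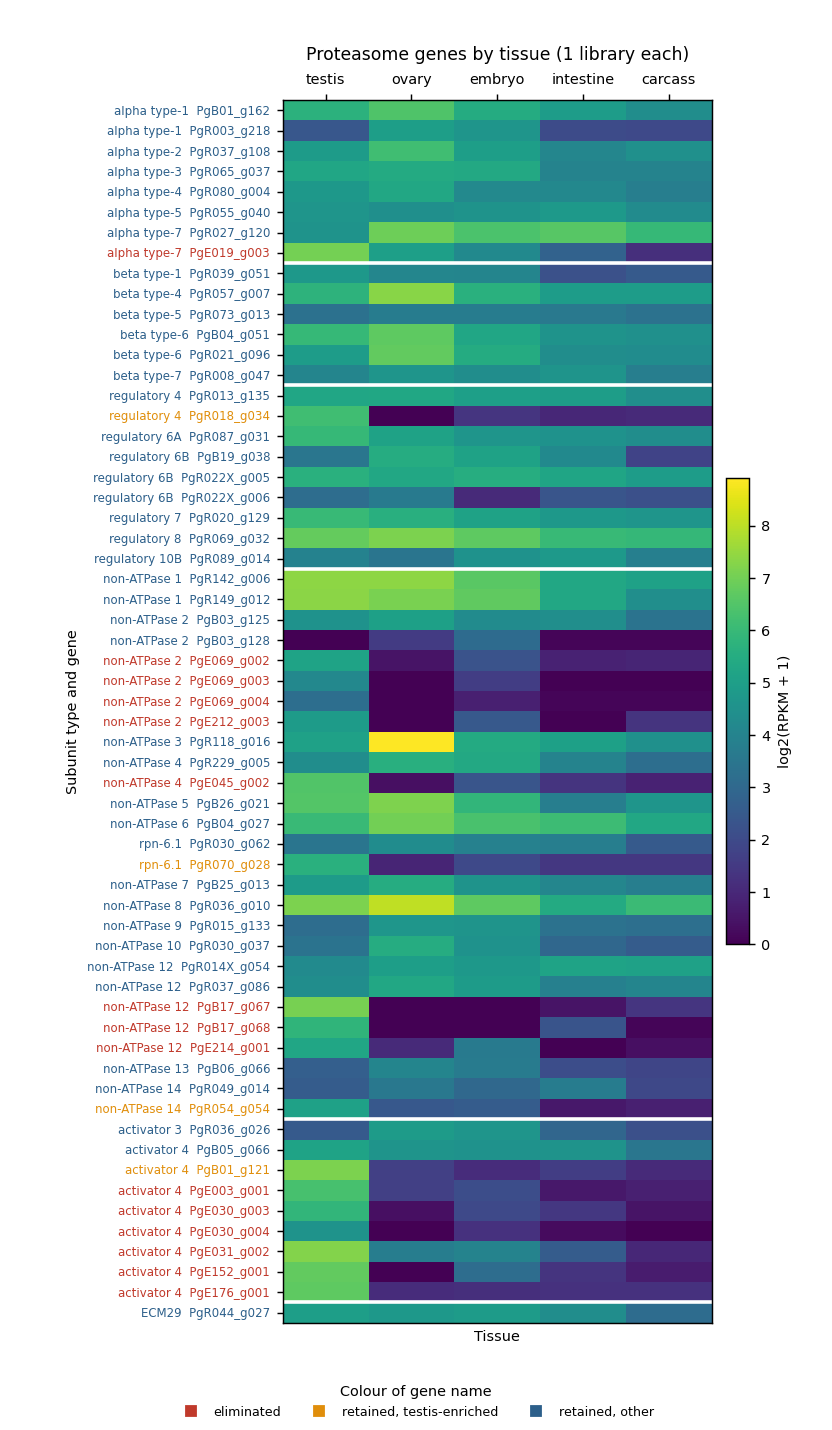
Level of each of the 60 proteasome genes in each tissue (1 library per tissue) as log2(RPKM + 1), ordered by role and subunit kind. Names of eliminated genes are red, those of retained testis-enriched genes orange and those of other retained genes blue. The 15 eliminated genes are bright in the testis column and dark in most others, while most retained genes keep a middle level throughout.

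The 20S core had a single eliminated member, the alpha type-7 gene PgE019_g003 (scaffold PgE019, positions 43589 to 53912, plus strand, 7 exons). Alpha type-7 is one of the ring subunits of the gate. This gene stood at 132.5 RPKM in testis, 31.4 in ovary, 17.7 in embryo, 1.3 in carcass and 6 in intestine. The testis value rests on 7014 reads, with a 95% Poisson interval of 129 to 136 RPKM, and the ovary value on 1683 reads, with an interval of 29.9 to 32.9 RPKM. These intervals cover counting error only. Among the eliminated members it had the smallest testis-to-ovary difference, 2.04 on the log2 scale, and the highest ovary level.

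Its retained counterpart PgR027_g120 ran the other way, with 22.7 RPKM in testis, 121.4 in ovary, 83 in embryo, 61.6 in carcass and 96.6 in intestine. Testis was the tissue where the retained copy was lowest and the eliminated copy highest. The 2 copies together reached 155.2 RPKM in testis and 152.8 in ovary. The eliminated copy held 85.4% of that sum in testis, 20.5% in ovary, 17.6% in embryo, 2.07% in carcass and 5.85% in intestine. A share within 1 tissue does not depend on how the libraries are scaled, whereas the nearness of the testis and ovary sums does. How reads that match several copies were counted is not given in the sources used here, so the division between similar copies is uncertain for every kind of subunit below.

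The other alpha subunits were retained and not enriched in testis. Alpha type-1 had a pair of genes with different patterns. PgB01_g162 stood at 52.3 RPKM in testis, 86.1 in ovary, 44.1 in embryo, 19.4 in carcass and 29.6 in intestine. PgR003_g218 stood at 4.3, 31.1, 24, 2.9 and 3.1 RPKM in the same order and was thus high in ovary and embryo and low elsewhere. Alpha type-5 (PgR055_g040) was the flattest, between 18.6 RPKM in carcass and 26.4 in intestine. Alpha types 2, 3 and 4 had 1 gene each, all highest in ovary, at 70.4, 43 and 39.4 RPKM. No gene annotated as alpha type-6 was matched.

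Beta subunits form the catalytic rings, and all 6 matched genes were retained. Beta type-4 (PgR057_g007) was the highest of them in ovary, at 160.4 RPKM in ovary, 53.2 in testis, 49.8 in embryo, 29.3 in carcass and 29.1 in intestine. The beta type-6 gene PgB04_g051 was the highest in testis, at 62.2 RPKM, with 101.8 in ovary, 37.8 in embryo, 21 in carcass and 22.9 in intestine. The other beta type-6 gene, PgR021_g096, stood at 29.3 RPKM in testis, 108 in ovary, 43.7 in embryo, 19 in carcass and 19.6 in intestine. The pair was thus near each other in every tissue but testis. Beta type-5, which carries the chymotrypsin-like activity in other eukaryotes, was low and even, between 8.9 RPKM in testis and 12.5 in ovary (PgR073_g013). Beta type-1 (PgR039_g051) was highest in testis, at 25.7 RPKM against 16 in ovary, 15.5 in embryo, 4.8 in carcass and 3.6 in intestine. It was the beta gene called higher in testis than in both intestine and carcass. Beta type-7 (PgR008_g047) ranged from 13.1 RPKM in carcass to 24 in ovary. Beta types 2 and 3 were not matched by the annotation words.

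The ATPase ring of the 19S particle had all 6 of its subunits matched, in 9 genes, none eliminated. Regulatory subunit 4 had a testis copy in retained DNA. PgR018_g034 (scaffold PgR018, positions 624544 to 631919, minus strand, 8 exons) stood at 71.3 RPKM in testis, was listed at 0 in ovary, and had 1.6 in embryo, 1.1 in carcass and 1 in intestine. Values are given to 1 decimal, so 3 reads in ovary, 0.0319 RPKM, would also be listed at 0. It overlaps the hypothetical gene PgR018_g033 on the opposite strand, which stood at 62.9 RPKM in testis, and the sources used here do not say if the libraries were stranded. The broad copy, PgR013_g135, stood at 38 RPKM in testis, 38.4 in ovary, 31.4 in embryo, 20.1 in carcass and 30.4 in intestine. On the scale of the deposited values it differed little between testis and ovary, unlike the broad alpha type-7 gene. That nearness depends on how the libraries are scaled.

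Regulatory subunit 8 (PgR069_g032) was the most abundant ATPase gene, from 60.4 RPKM in carcass to 140.7 in ovary. Regulatory subunits 6A (PgR087_g031) and 7 (PgR020_g129) were highest in testis, at 61.3 and 63.1 RPKM against 34 and 48 in ovary. Regulatory subunit 10B (PgR089_g014) was highest in intestine, at 27.1 RPKM, and lowest in ovary, at 10.1. Subunit 6B was annotated at 3 genes. PgR022X_g005 stood at 49.1 RPKM in testis, 39.6 in ovary, 45.4 in embryo, 29.4 in carcass and 37 in intestine. PgR022X_g006, with a transcript of 304 nt, lies inside it on the opposite strand and stood at 8 RPKM in testis, 11.3 in ovary, 1.1 in embryo, 3.5 in carcass and 4.1 in intestine. The third, PgB19_g038, carries the proteasome annotation on 1 of its 7 transcripts and that of a lysosomal-trafficking regulator on the rest. It stood at 10.4 RPKM in testis, 44.6 in ovary, 34.3 in embryo, 2.5 in carcass and 17.8 in intestine.

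Non-ATPase subunits of the 19S particle held 8 of the 15 eliminated members. Non-ATPase subunit 12, called Rpn5 in yeast, is a scaffold subunit of the lid, and it had 3 eliminated and 2 retained genes. PgB17_g067 stood at 133.2 RPKM in testis, was listed at 0 in ovary and embryo, and had 1.6 in carcass and 0.4 in intestine. PgB17_g068, the next gene on the same strand, stood at 56.3 RPKM in testis, was listed at 0 in ovary and embryo, and had 0.1 in carcass and 4 in intestine. Both lie between positions 988400 and 1011085 of scaffold PgB17, where 5 of 70 genes are marked as eliminated. Their transcripts have 7 exons over 793 nt and 6 exons over 764 nt. The retained gene PgR014X_g054 of this subunit has 13 exons over 1761 nt. Whether PgB17_g067 and PgB17_g068 are parts of the same gene was not tested, and counts and sums here take them as separate. PgE214_g001 stood at 37.9 RPKM in testis, 1.1 in ovary, 11.7 in embryo, 0.3 in carcass and 0 in intestine.

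That gene was the 1 eliminated member not enriched in testis, since its testis level was 3.24 times its embryo level. Its representing transcript is 223 nt long and its embryo value rests on 31 reads, with an interval of 7.96 to 16.6 RPKM. A longer transcript of the same locus (3285 nt) stood at 20.4 RPKM in testis and 1.6 in embryo. The retained genes PgR037_g086 and PgR014X_g054 were broad. PgR037_g086 stood at 19.5 RPKM in testis, 39.4 in ovary, 28.3 in embryo, 15.6 in carcass and 13.6 in intestine, and PgR014X_g054 at 18.1, 31, 26.1, 32.9 and 35.2 in the same order. The eliminated genes held 85.8% of the summed level of subunit 12 in testis and 1.54% in ovary.

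Non-ATPase subunit 2 (yeast Rpn1), a docking site for ubiquitin receptors, had 4 eliminated and 2 retained genes. PgE069_g002 stood at 35 RPKM in testis, 0.4 in ovary, 3.9 in embryo, 0.9 in carcass and 0.8 in intestine. Inside it, on the opposite strand, lie PgE069_g003 and PgE069_g004. The former had 17 RPKM in testis and 2.1 in embryo and was listed at 0 in the other tissues. The latter had 8.2 RPKM in testis, 0.7 in embryo, 0.1 in carcass and in intestine, and was listed at 0 in ovary. Because the strand of the reads is not known, these 3 values may share reads. PgE212_g003, with a transcript of 309 nt, stood at 28.8 RPKM in testis, 4.6 in embryo and 1.5 in carcass and was listed at 0 in ovary and intestine. The broad retained gene PgB03_g125 stood at 22.3 RPKM in testis, 32.2 in ovary, 18.8 in embryo, 9.6 in carcass and 20 in intestine. A short retained gene nearby, PgB03_g128, was listed at 0 in testis and had 1.9 RPKM in ovary, 7.7 in embryo and 0.1 in carcass and in intestine. Eliminated genes held 80.0% of the subunit's summed level in testis and 1.16% in ovary.

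Non-ATPase subunit 4 (Rpn10) is a ubiquitin receptor and had 1 gene of each kind. The eliminated PgE045_g002 (scaffold PgE045, positions 14219 to 31729, minus strand, 11 exons) stood at 89 RPKM in testis, 0.3 in ovary, 4.1 in embryo, 0.8 in carcass and 1.5 in intestine. The retained PgR229_g005 stood at 19.6 RPKM in testis, 48.3 in ovary, 40.7 in embryo, 8.4 in carcass and 14.7 in intestine. In testis 82.0% of the summed level came from the eliminated gene, and in ovary 0.62%. The 2 genes thus exchanged rank between testis and every other tissue.

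A further pair of lid subunits had testis copies in retained DNA. Non-ATPase subunit 14 (Rpn11) is the enzyme that cuts ubiquitin chains off the substrate. PgR054_g054 stood at 33.4 RPKM in testis, 4.5 in ovary, 5.1 in embryo, 0.7 in carcass and 0.5 in intestine. Its broad counterpart PgR049_g014 stood at 5.1 RPKM in testis, 10.8 in ovary, 7 in embryo, 2.8 in carcass and 12.3 in intestine. The lid subunit rpn-6.1, named after the Caenorhabditis elegans gene, repeated this arrangement. PgR070_g028 stood at 49.5 RPKM in testis, 0.9 in ovary, 2.9 in embryo, 1.7 in carcass and 1.7 in intestine, whereas PgR030_g062 stood at 9.9, 18.9, 14.1, 4.7 and 13 in the same order. The testis copies held 86.8% and 83.3% of the summed level of these subunits in testis.

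Retained non-ATPase genes without a testis copy held the highest levels of the whole set. Non-ATPase subunit 1 (yeast Rpn2), a large scaffold subunit of the base, had a pair of genes at similar levels. PgR142_g006 stood at 168.6 RPKM in testis, 168.7 in ovary, 98.7 in embryo, 33.1 in carcass and 39.8 in intestine, and PgR149_g012 at 164.8, 136.7, 104.9, 19.9 and 39.1 in the same order. Both were called higher in testis than in intestine and carcass, by 2.06 and 2.05 on the log2 scale, near the threshold of 2. PgR142_g006 lost this call under every other scaling of the libraries tried, and PgR149_g012 under most of them. Non-ATPase subunit 8 (PgR036_g010) stood at 139.8 RPKM in testis, 266.2 in ovary, 101.6 in embryo, 66.8 in carcass and 42.5 in intestine. Non-ATPase subunits 5, 9 and 10, which act as assembly chaperones in mammals, were all highest in ovary. PgB26_g021 (subunit 5) stood at 90.8 RPKM in testis, 143 in ovary, 57.4 in embryo, 24.2 in carcass and 13 in intestine. PgR030_g037 (subunit 10) stood at 9.5 RPKM in testis, 45.2 in ovary, 22.2 in embryo, 5 in carcass and 6.9 in intestine, and PgR015_g133 (subunit 9) had 24.6 in ovary. The lid subunits 6 (PgB04_g027), 7 (PgB25_g013) and 13 (PgB06_g066) were also highest in ovary, at 129.4, 45 and 15.7 RPKM.

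The value of non-ATPase subunit 3 needs its own account. Its locus PgR118_g016 stood at 32.8 RPKM in testis, 478.5 in ovary, 43 in embryo, 21.2 in carcass and 32 in intestine, and it was the 1 member enriched in ovary. The transcript that gives these values runs into a stretch where a transcript annotated as hypothetical stood at 1157.3 RPKM in ovary. The subunit's shorter transcripts, which lie beyond that stretch, had 44.4 and 50 RPKM in testis, and their ovary levels were 85.6 and 93.3. The ovary excess at this locus therefore differs between transcripts, and its largest value lies outside the shorter proteasome models.

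PSME4 was the subunit with the most annotated genes, 8, of which 6 were eliminated. PgE031_g002 (scaffold PgE031, positions 15311 to 56257, plus strand) was the highest, at 151.7 RPKM in testis, 12.8 in ovary, 14.7 in embryo, 1 in carcass and 5.1 in intestine. PgE152_g001 stood at 107 RPKM in testis, was listed at 0 in ovary, and had 8 in embryo, 0.6 in carcass and 1.5 in intestine. PgE176_g001 stood at 103 RPKM in testis, 1.2 in ovary, 1.3 in embryo and 1.4 in carcass and in intestine. Testis was the high tissue for each, and they differed in what was left elsewhere, with embryo next for the first 2.

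PgE003_g001 stood at 77.9 RPKM in testis, 2.2 in ovary, 3.3 in embryo, 0.7 in carcass and 0.5 in intestine. PgE030_g003 stood at 57.7 RPKM in testis, 0.3 in ovary, 2.9 in embryo, 0.4 in carcass and 1.7 in intestine. PgE030_g004 lies inside it on the opposite strand and stood at 22.7 RPKM in testis, 1.4 in embryo and 0.2 in intestine. It was listed at 0 in ovary and carcass. Because the strand of the reads is not known, PgE030_g003 and PgE030_g004 may share reads, also in the sums below. Over these 6 genes the testis-to-ovary difference ranged from 3.47 for PgE031_g002 to 6.75 for PgE152_g001 on the log2 scale; where ovary is 0, the difference depends on the added 1.

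Retained DNA held 2 PSME4 genes with contrasting patterns. PgB01_g121 (scaffold PgB01, positions 1864096 to 1897182, minus strand) stood at 140.3 RPKM in testis, 2.2 in ovary, 1.2 in embryo, 1.1 in carcass and 2.1 in intestine. Its testis value rests on 28545 reads, with an interval of 139 to 142 RPKM. PgB05_g066 was broad, at 35 RPKM in testis, 23.4 in ovary, 22.1 in embryo, 10.2 in carcass and 22.8 in intestine. The 8 genes summed to 695.3 RPKM in testis, 42.1 in ovary, 54.9 in embryo, 15.4 in carcass and 35.3 in intestine. Without the 6 eliminated genes and PgB01_g121, which held 95.0% of the testis sum and 44.4% of the ovary sum, the testis level was that of PgB05_g066 alone.

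The PSME4 loci also differed in the models they carry. PgB01_g121 has transcripts of up to 45 exons and PgB05_g066 of up to 41. Among the eliminated genes PgE003_g001 has up to 40 exons, PgE031_g002 up to 31, PgE030_g003 up to 25, PgE152_g001 up to 19 and PgE176_g001 up to 9. Within PgE031_g002 the ovary signal lay in the 5′ portion of the locus. A transcript that ends at position 37374 had 151.7 RPKM in testis and 12.8 in ovary, whereas 2 transcripts that start at 44817 and 52008 stood at 95.2 and 65.2 RPKM in testis and were both listed at 0 in ovary. No protein or transcript sequence was used here, so whether the shorter models make a working activator was not tested. Whether some of them are parts of the same gene was not tested either.

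Other activators and partners of the core were retained. Activator subunit 3 (PgR036_g026), PA28 gamma in mammals, is a nuclear activator that works without ubiquitin. It stood at 4.8 RPKM in testis, 28.4 in ovary, 24.3 in embryo, 3.5 in carcass and 6.7 in intestine, so the activators 3 and 4 were high in different tissues. ECM29 (PgR044_g027), a large protein that tethers the core and the 19S particle, ranged from 7.8 RPKM in carcass to 30.5 in testis over a transcript of 473 nt. Its longest transcript, 6869 nt, stood at 16.7 RPKM in testis, 15.6 in ovary, 10.2 in embryo, 5.9 in carcass and 9.2 in intestine.

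**Figure D2:**
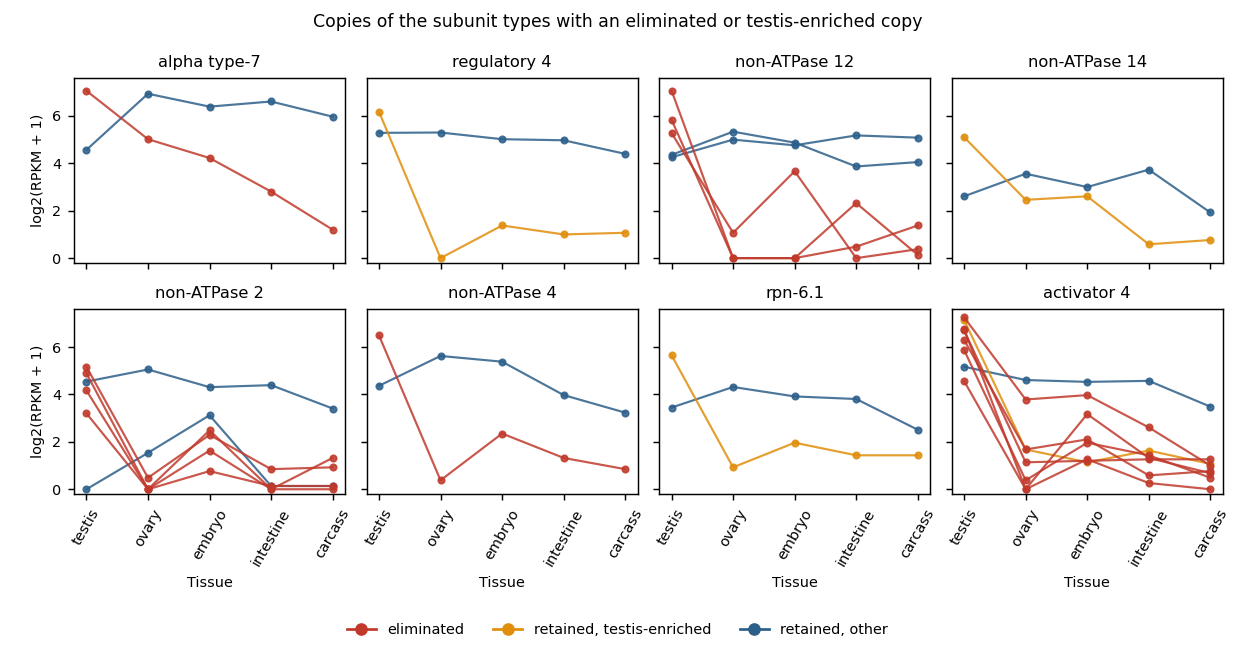
Level of every gene copy, as log2(RPKM + 1) with 1 library per tissue, for the 8 kinds of subunit that have an eliminated or testis-enriched copy; lines only join the points of 1 gene. Red and orange copies peak in testis in all 8 panels, and the blue retained copies lie above them in most of the other tissues.

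Across the 8 kinds of subunit with an eliminated or retained testis-enriched copy, those copies held between 65.2% (regulatory subunit 4) and 95.0% (PSME4) of the summed level in testis. In ovary their share ran from 0% for regulatory subunit 4 to 44.4% for PSME4. The other retained genes of these 8 kinds number 10, and 9 of them were lower in testis than in ovary, with a median difference of -0.91 on the log2 scale. The 31 retained genes of kinds without such a copy had a median of -0.63, with 23 lower in testis. With median-of-ratios scaling only 3 of the 10 and 10 of the 31 were lower in testis, so this direction rests on the scale of the deposited values. The copies that hold the testis share were chosen in part for their testis level, which makes these shares a description.

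**Figure D3:**
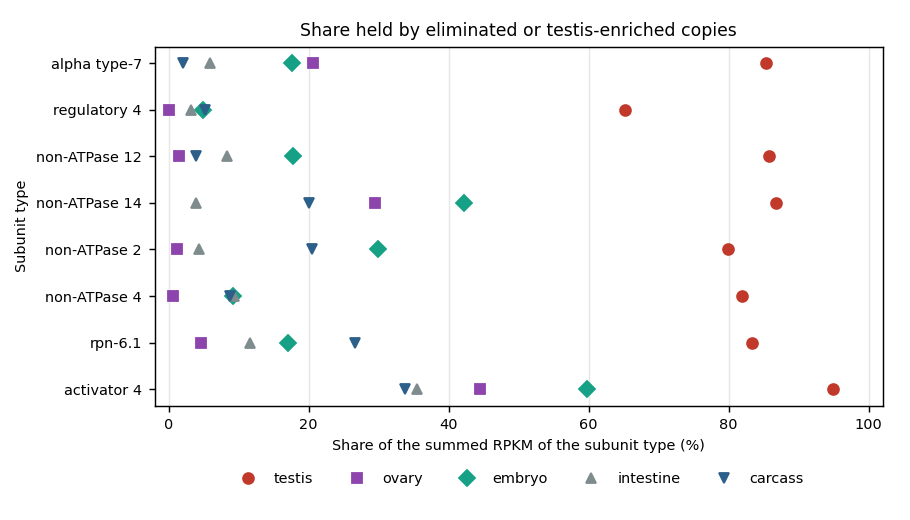
Share of the summed RPKM of each subunit kind that is held by its eliminated or testis-enriched copies (x axis, percent), with 1 symbol per tissue and 1 library per tissue. The testis symbols lie between 65.2% and 95.0%, and every symbol of another tissue lies to their left.

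The eliminated genes together stood at 1057.9 RPKM in testis, which was 35.6% of the summed level of all members there. They stood at 49.7 RPKM in ovary, 76.4 in embryo, 10.7 in carcass and 23.2 in intestine, between 1.40% and 4.75% of the members' sum in those tissues. The 4 retained testis-enriched genes added 294.5 RPKM in testis and no more than 10.8 in any other tissue. At 1 RPKM or more, 15 eliminated genes were present in testis, 5 in ovary, 12 in embryo, 5 in carcass and 7 in intestine. Listed at 0 were 7 in ovary, 2 in embryo, 2 in carcass and 3 in intestine. The testis level exceeded that of the next tissue by a factor of 3.24 to 83.3, with a median of 13.4.

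Intestine and carcass belong to the cells that lose this DNA, yet low values remained there. As a percentage of testis, the summed eliminated members stood at 2.19% in intestine, and at 1.01% in carcass. The 35 sperm protein markers stood at 2.40% of their testis sum in intestine, with 7 of them listed at 0, and at 1.15% in carcass, with 2 listed at 0. In ovary and embryo the order differed. The eliminated members stood at 4.70% and 7.22% of testis, and the sperm protein markers at 0.131% and 0.580%. The 4 retained testis-enriched members lay between them, at 2.58% in ovary and 3.67% in embryo. The ovary sum of the eliminated members, 49.7 RPKM, came mostly from PgE019_g003 (31.4) and PgE031_g002 (12.8). The median eliminated member stood at 0.337% of its testis level in ovary and at 7.48% in embryo. The part that testis RNA in the other libraries plays in these values was not tested.

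**Figure D4:**
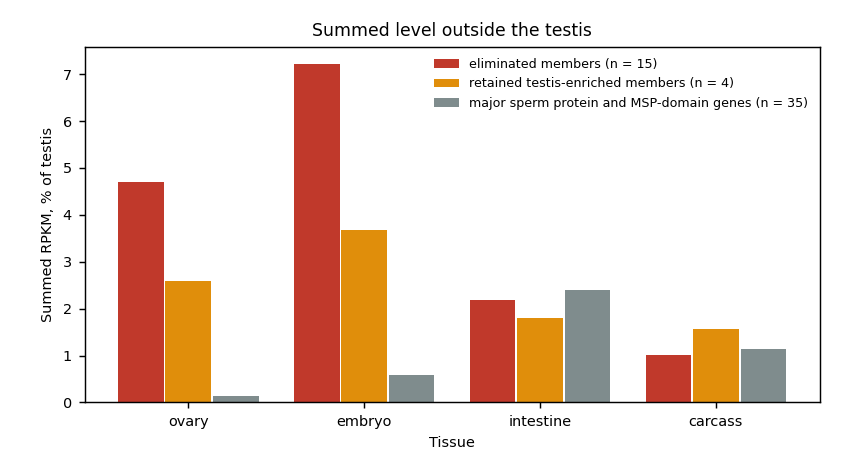
Summed RPKM outside the testis as a percentage of the testis sum for 15 eliminated members, 4 retained testis-enriched members and 35 sperm protein genes, with 1 library per tissue. In intestine and carcass the bars of the 3 lists are of similar height, between 1.01% and 2.40%. In ovary and embryo the summed eliminated members stand well above the sperm protein genes, and the retained testis-enriched members lie between them. Most of the eliminated members' sum in ovary comes from PgE019_g003 and PgE031_g002.

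The remaining comparisons involved few members. In testis against ovary, 6 members were higher in ovary, beside 15.9% of all genes, and all 6 were retained. They were PgR118_g016 (non-ATPase 3), PgR003_g218 (alpha type-1), PgR027_g120 (alpha type-7), PgR036_g026 (activator 3), PgR030_g037 (non-ATPase 10) and PgB19_g038 (6B), the last exactly at the threshold. With median-of-ratios or upper-quartile scaling PgR118_g016 alone remained. Its call comes from the transcript that runs into the hypothetical stretch. The shorter subunit transcripts of this locus, at 44.4 and 50 RPKM in testis and 85.6 and 93.3 in ovary, differ by less than 4-fold.

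In embryo against ovary, 2 members were higher in embryo, beside 5.35% of all genes. Both were eliminated genes, PgE152_g001 and PgE214_g001. Transcripts of PgE152_g001 ranged from 3 to 8.7 RPKM in embryo, so some of them, including the longest, lie below the minimum for a call. The PgE214_g001 call rests on its 223 nt transcript. Longer transcripts of that locus stood at 0.1 to 1.7 RPKM in embryo, below the minimum for a call. Another 2 were higher in ovary, PgR118_g016 and PgR022X_g006, beside 4.45% of all genes. The PgR118_g016 value is that of the long transcript described above. PgR022X_g006 is a nested gene with a transcript of 304 nt, and its embryo value rests on 4 reads. In intestine against carcass, PgB19_g038 was higher in intestine, beside 4.96% of all genes, and no member was higher in carcass, beside 7.19%.

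In testis against intestine and carcass, 22 members were higher in testis, beside 14.3% of all genes. They were the 15 eliminated members, the 4 retained testis-enriched ones, both non-ATPase 1 genes and beta type-1. With upper-quartile scaling only the first 19 of these were called. No member was higher in both somatic tissues, beside 3.03%, except PgR027_g120 (alpha type-7) with median-of-ratios or upper-quartile scaling. In ovary against intestine and carcass, 9 members were higher in ovary, beside 16.1% of all genes, and none was higher in soma, beside 3.36%. Of the 9, only the alpha type-7 gene PgE019_g003 was eliminated. The others included both beta type-6 genes, beta type-4 and non-ATPase 5, with differences of 2.10, 2.40, 2.41 and 2.51 on the log2 scale. With median-of-ratios or upper-quartile scaling PgR118_g016 alone stayed higher in ovary, by the same long transcript. With median-of-ratios scaling PgR089_g014 (10B) was called higher in soma.

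When both gonads had to exceed both somatic tissues, 2 members were called, PgE019_g003 and PgR142_g006, beside 3.36% of all genes, and none in the reverse direction, beside 1.7%. Neither was called with pseudocount 5, at 8-fold or under any of the 4 other scalings. Enrichment against each other tissue held for 18 members in testis, 14 eliminated and 4 retained, beside 9.48% of all genes, and for 1 in ovary, beside 1.8%. No member was enriched in embryo, intestine or carcass, where the shares of all genes were 1.9%, 1.95% and 3.67%. Among all eliminated genes, 41.7% were enriched in testis.

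The retained set as a whole was close to the rest of the transcriptome in testis against ovary. The median difference of the 45 retained members was -0.63 on the log2 scale, beside -0.89 for all genes that reached 1 RPKM in testis or ovary. Between the lower gonad and the higher somatic tissue the retained members had a median of 0.37, beside -0.45 for all genes. The sign of both medians turned with the scaling. With median-of-ratios scaling they became 0.49 and -0.41, beside 0.13 and -0.90 for all genes. Relative to all genes, the retained median was higher by 0.26 to 0.36 in testis against ovary under every scaling tried, and by 0.48 to 0.82 in the gonads against soma.

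By role, the 41 retained genes not enriched in testis had a median difference between testis and ovary of 0.14 for the 8 ATPase genes, -0.95 for the 17 non-ATPase genes, -0.71 for the 7 alpha genes and -0.65 for the 6 beta genes. All 4 were positive with median-of-ratios scaling, and the ATPase genes had the highest of these 4 medians under every scaling tried. In the deposited values 29 of the 41 genes were highest in ovary, beside 37.4% of all genes, and 27 were lowest in carcass, beside 33.3%. With median-of-ratios scaling 7 were highest in ovary, 19 were highest in testis and 4 were lowest in carcass.

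**Figure D5:**
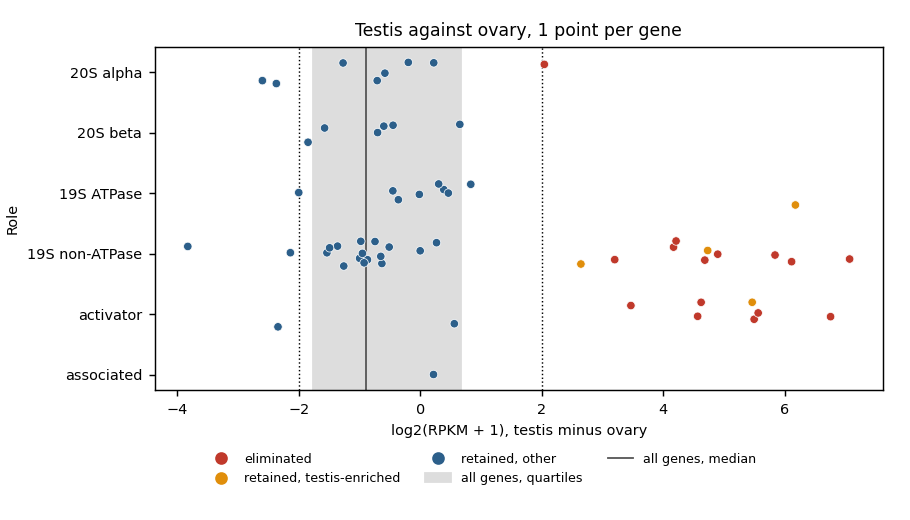
Difference between testis and ovary for each proteasome gene, on log2(RPKM + 1) from 1 library per tissue, by role. Dotted lines mark the threshold of 2 in either direction, the grey band and line show the quartiles and the median of all genes (-0.89), and the 19 genes beyond the right-hand line are the 15 eliminated and 4 retained testis-enriched ones.

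The 5′ end marks differed between the classes of member. A spliced leader mark, which records that a short leader RNA was joined to the 5′ end of the transcript, was present at 26 of the 41 retained genes not enriched in testis (63.4%), beside 37.6% of all retained genes. It was present at 2 of the 15 eliminated members (13.3%), PgE003_g001 and PgE031_g002, beside 14.3% of all eliminated genes. A TeloPrime mark was present at 4 of these 41 genes (9.76%), beside 15.7% of all retained genes, and at 4 of 15 eliminated members (26.7%), beside 18.9% of all eliminated genes. Neither mark was found at 11 eliminated members (73.3%), beside 70.2% of all eliminated genes. Of the 4 retained testis-enriched members, PgB01_g121 had the spliced leader mark, and PgR018_g034 and PgR054_g054 the TeloPrime mark. Of all genes in the deposited data, 16.2% of those enriched in testis had the spliced leader mark and 44.1% the TeloPrime mark. A mark depends on how deeply a transcript was sampled in the mixed libraries, so its absence is not evidence of another 5′ end.

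Of the 11 scaffolds with eliminated members, PgE152, PgE176 and PgE214 hold no other gene. On PgE030, next to the PSME4 gene PgE030_g003, the ubiquitin-conjugating enzyme E2 L3 gene PgE030_g001 stood at 166.7 RPKM in testis, was listed at 0 in ovary, and had 2.5 in embryo, 2.1 in carcass and 1.9 in intestine. On PgE019, beside alpha type-7, were genes annotated as baculoviral IAP repeat-containing protein 6 (PgE019_g001), in mammals a ubiquitin ligase, and Kelch-like protein 10 (PgE019_g002), a ligase adaptor of mammalian spermatids. Their testis levels were 73.4 and 90.9 RPKM, with no more than 3.8 elsewhere. PgE019_g002 lies inside PgE019_g001 on the opposite strand, so these values may share reads. On PgE045, beside non-ATPase 4, the E2 J2 gene PgE045_g001 was lower, at 12.4 RPKM in testis and 5.4 in ovary. Eliminated neighbours without a ubiquitin annotation were also high in testis. PgE069_g001, PgE045_g003 and PgE030_g005, all hypothetical, had 58.5, 44.4 and 37.1 RPKM in testis and 0, 0.1 and 0.6 in ovary. The amino acid transporter gene PgB17_g069 had 44.2 in testis and 0 in ovary. Other eliminated neighbours were higher in ovary. Beside the PSME4 gene PgE003_g001, a pair of genes annotated as CCR4-NOT subunit 4, a ubiquitin ligase in yeast and mammals, had 3.2 RPKM in testis against 12.5 in ovary (PgE003_g002) and 1.4 against 4.6 (PgE003_g003). Beside alpha type-7, PgE019_g004 (tristetraprolin) had 21.3 RPKM in testis against 162.6 in ovary, and beside PgE031_g002 the hypothetical gene PgE031_g001 had 2.1 against 27.7. Neighbours were chosen for naming after their values were seen.

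The rest of the ubiquitin pathway was followed in 7 lists with 92 genes, 13 of them eliminated. Enrichment in testis held for 4 of the 92 genes, all conjugating enzymes, which pass ubiquitin to the ligases, and 2 of these were eliminated, beside the 9.48% of all genes given above. Among 29 conjugating enzymes, 6 of them eliminated, 5 were higher in testis than in ovary, beside 11.6% of all genes. Another 2 were higher in ovary, beside 15.9%. Besides PgE030_g001, the eliminated enriched gene was PgE109_g003 (E2 2), at 16.4 RPKM in testis, 0.4 in ovary, 3.3 in embryo, 0.5 in carcass and 0.6 in intestine.

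Deubiquitinating enzymes recycle or trim ubiquitin. None of the 35 genes, 6 of them eliminated, was higher in testis than in ovary, beside 11.6% of all genes. In the reverse direction 1 was higher in ovary, beside 15.9%. The 6 eliminated genes were all called higher in ovary than in intestine and carcass, beside 16.1% of all genes and 26.4% of all eliminated genes. PgE053_g002 (hydrolase 7) stood at 24.7 RPKM in testis, 19.7 in ovary, 16.4 in embryo, 0.1 in carcass and 0.5 in intestine. Of the 15 eliminated proteasome genes, PgE019_g003 alone had this call, and the difference between the lists was not tested.

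Among 11 genes for ubiquitin itself and its activating enzymes, 1 was higher in testis than in ovary, beside 11.6% of all genes. None was higher in ovary, beside 15.9%. The highest, polyubiquitin-A (PgB09_g075), stood at 506.9 RPKM in testis, 1395.1 in ovary, 899.4 in embryo, 320.3 in carcass and 761.2 in intestine. The 4 receptors and shuttles and the 4 genes of the segregase that pulls tagged proteins out of complexes had no call between testis and ovary. The 7 COP9 signalosome genes and the 2 regulators of proteasome genes had none either. Such short lists can lack calls at the shares of all genes given above. ADRM1 (PgR044_g082), the receptor Rpn13 that sits on the 19S particle, stood at 174.7 RPKM in testis, 421.5 in ovary, 187.6 in embryo, 140 in carcass and 163.1 in intestine. Skinhead-1 (PgB14X_g039), which controls proteasome genes in C. elegans, stood between 20.1 RPKM in carcass and 52.4 in intestine.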

How the data were processed

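The authors' deposited table gives 1 RPKM value per transcript and tissue, to 1 decimal, for 40487 transcripts. The unit was inferred from the steps between low values, which match whole reads divided by transcript length. The submitters' processing notes name TopHat2 and Cufflinks, without a version or role. The genome build is not given in the sources used here, and neither are the criteria for the elimination mark and the handling of multiply matching reads. Members were found by the words proteasome or 26S protease (221 transcripts), and the members and gene lists were chosen with earlier results of these data known. For each gene the transcript of highest mean RPKM was used, for members among transcripts whose annotation matches. In 7 members some transcripts carry another annotation. Subunit rpn-6.1 was placed with the non-ATPase subunits, which is its known role, although the wording rule would have put it with the ATPases. The naming rule gives values in every tissue for eliminated members, members called in a comparison and those that share an annotation. Depths were recovered from low values of short transcripts, of which between 98.98% and 100% came out whole within 0.05 RPKM, and intervals are exact Poisson at 95%. Calls and depth recovery were tested on simulated data with counting error only, large changes and an ovary depth below the recovered one. That simulation does not cover variation between libraries or changes near the thresholds. The alternatives covered pseudocount, scaling, representation, thresholds and members. Python 3.11.15 with pandas 2.3.3, numpy 2.4.6 and scipy 1.17.1 was used. Columns of other samples numbered 0.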

Additional observations from a re-analysis of the deposited data

How the results depend on the processing

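Of 120 recomputed counts and medians over 15 alternatives, 72 kept their value within the limits set, and of 834 testis-against-ovary values of single members 799 kept their call, 29 lost it and 6 gained it. The sign changed in 36, 19 of them with median-of-ratios scaling, and in 0 of the called members. All 15 eliminated members kept their call as higher in testis under the 4 scalings and both other representations. The call was kept by 14 at 8-fold and by 13 with pseudocount 5 or a minimum of 20 RPKM. The split of calls between testis and ovary, 19 to 6, became 19 to 1 with median-of-ratios or upper-quartile scaling. Those scalings moved the median of all genes in this comparison by 1.03 and 0.63 on the log2 scale. The eliminated share in testis was 44.0% summed over transcripts and 31.2% with the longest transcript.

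The retained median, testis against ovary, was reversed with median-of-ratios scaling (0.49) and upper quartile (0.061). It was -0.65 and -0.52 with pseudocounts 0.1 and 5, -0.48 as TPM, -0.43 without the 20 highest genes, -0.64 without the 4 nested members and -0.60 without PgR118_g016 and PgB19_g038; these last settings were chosen after seeing the data. The gonad-against-soma median was reversed with median-of-ratios (-0.41), upper quartile (-0.40) and without the 20 highest genes (-0.038). Its other values were 0.40 and 0.28 by pseudocount, 0.22 as TPM, 0.40 summed over transcripts, and 0.34 and 0.39 without the named members. The cause was not tested.

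Intestine-against-carcass calls (1) became 4 with pseudocount 0.1, 3 summed over transcripts, 7 at 2-fold, 2 with upper quartile, TPM, the 20 highest genes removed or no minimum, and 0 with pseudocount 5, median-of-ratios, 8-fold, a minimum of 20 RPKM or without PgR118_g016 and PgB19_g038. Embryo-against-ovary calls (4) became 8 summed over transcripts, 13 at 2-fold, 2 with the longest transcript or 8-fold, and 1 with pseudocount 5 or a minimum of 20 RPKM. Ovary-against-soma calls (9) became 26 at 2-fold, 3 without the 20 highest genes, 2 with median-of-ratios and 1 with upper quartile or 8-fold. Gonad-against-soma calls (2) became 9 at 2-fold, 1 as TPM or with the longest transcript, and 0 with pseudocount 5, median-of-ratios, upper quartile, the 20 highest genes removed or 8-fold.

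No paired analysis was possible because each tissue has 1 library. Levels under about 0.2 RPKM rest on a few reads in embryo.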
